A study of Mus musculus with 6 samples.

Results

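The insulin-like growth factor (IGF) system was followed through 10 genes of primary mouse testicular peritubular myoid (PTM) cells: the ligands Igf1 and Igf2, the receptors Igf1r and Igf2r, and the binding proteins Igfbp2, Igfbp3, Igfbp4, Igfbp5, Igfbp6 and Igfbp7. The genes were chosen by symbol as parts of the system, and all 10 were found among the 19285 genes with expression values. The treated group was 3 libraries from PTM cells of strain C57BL/6J given 50 nM endothelin-1 (ET-1), a contractile peptide, for 5 min, and its control was 3 libraries of untreated PTM cells of the same strain. All cells were primary and had been grown in DMEM/F12 with fetal bovine serum; ET-1 was given in DMEM/F12. The comparison asks which transcripts of the system differ between PTM cultures with and without a brief exposure to ET-1.

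IGF1 and IGF2 are small secreted peptides related to insulin. Both activate IGF1R, a tyrosine kinase receptor that signals through insulin receptor substrates to PI3 kinase and AKT and through RAS to ERK, whereas IGF2R carries IGF2 to the lysosome for breakdown and also sorts lysosomal enzymes. In the extracellular fluid the high-affinity binding proteins IGFBP2 to IGFBP6 hold the ligands away from the receptor or deliver them to it, and IGFBP7 is a related secreted protein that binds the IGFs weakly. In the testis IGF signalling supports Sertoli cell number and Leydig cell maturation.

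Expression is given in FPKM, fragments normalized for transcript length and for depth, so levels of different genes can be set side by side. From the spacing of the lowest FPKM values, depth was about 17630000 to 18320000 fragments a library. All 9 marker genes of peritubular myoid and smooth muscle cells were detected in every library, with Acta2, the smooth muscle actin, at 1529 to 2211 FPKM after ET-1 and 1474 to 1690 FPKM in untreated cells. Markers of other testicular cells were detected as well, and in such mixed RNA fewer cells of a type and less RNA per cell cannot be told apart. Untreated libraries 1 and 3 were the closest pair (Pearson correlation 0.9964 on the log2 scale, against 0.9729 to 0.9835 for the other pairs of a group). The labels do not say whether a group's libraries came from separate cultures or animals, so every p-value reflects only how much these 6 libraries vary, which may be technical variation.

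The transcripts of the binding proteins other than Igfbp5 were far more abundant than those of the ligands and receptors. Igfbp7 was the highest at 1041 to 1435 FPKM after ET-1 and 894 to 1256 FPKM in untreated cells, which ranked it 59th and 63rd of all genes by group mean. Igfbp2 came next, followed by Igfbp6, Igfbp3 and Igfbp4. The receptors and ligands lay between 1.66 and 11.03 FPKM in all 6 libraries. Igfbp5 was the lowest member in both groups by its mean. After ET-1 the ranges of neighbours in this order overlapped for Igfbp6 and Igfbp3, for Igfbp3 and Igfbp4, for Igf1r and Igf1 and for Igf1 and Igf2r. In untreated cells they overlapped for Igfbp6 and Igfbp3, for Igf2 and Igf1 and for Igf1 and Igfbp5. Igf1 thus stood beside the receptors after ET-1 and beside Igf2 and Igfbp5 in untreated cells.

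**Figure D1:**
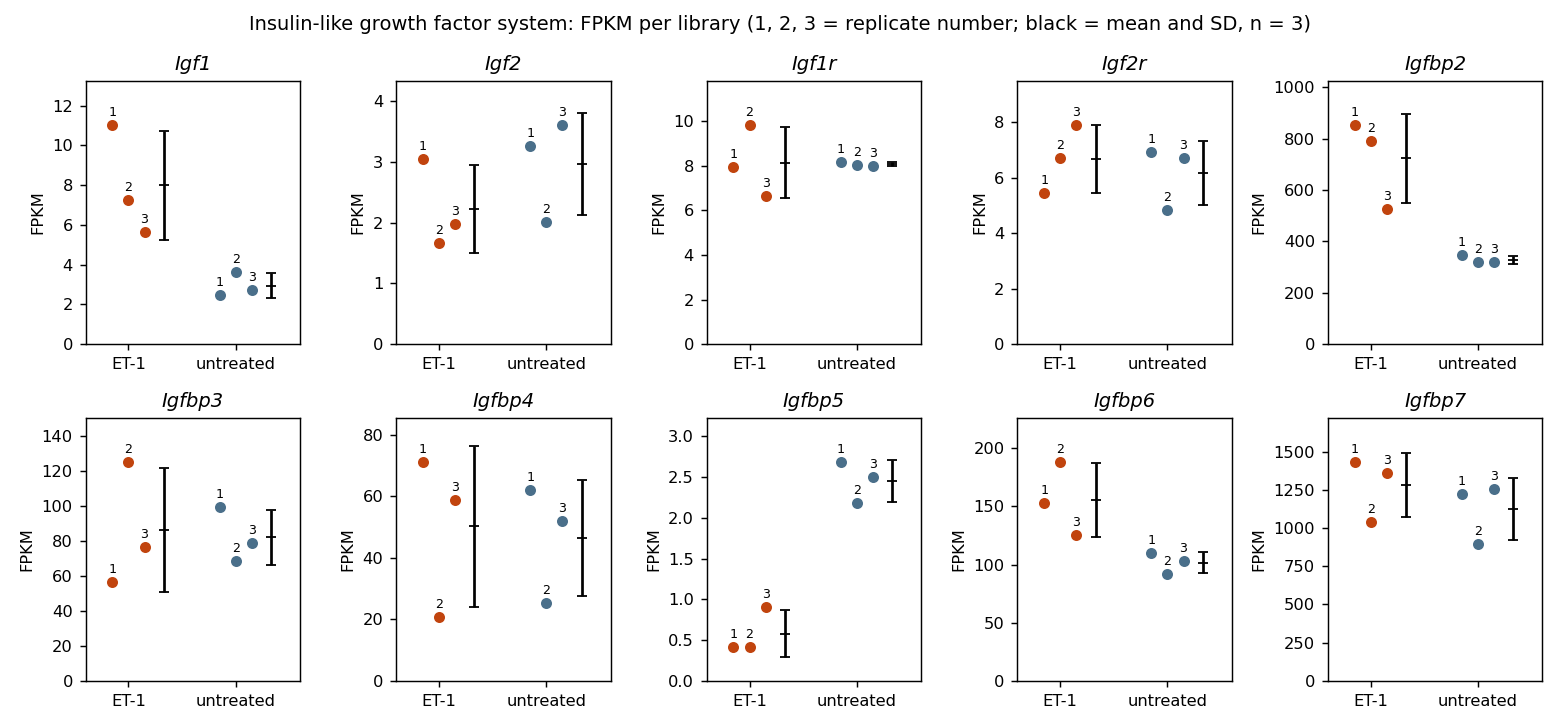
FPKM of the 10 members in each library, ET-1 (left, red) and untreated (right, blue), with the replicate number above each point and the mean and SD (n = 3) in black, each panel on its own linear axis from 0. The ET-1 points of Igf1, Igfbp2 and Igfbp6 all lie above the untreated ones and those of Igfbp5 all lie below, while the groups overlap in the other 6 panels.

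Across the system, 2 members rose (Igf1 and Igfbp2), 1 fell (Igfbp5) and 7 did not pass limma at a Benjamini-Hochberg adjusted p of 0.05. Limma was fitted on log2(FPKM + 1) of the 11664 genes with at least 1 FPKM in at least 3 libraries, and 3.46% of those genes passed, 1.57% higher and 1.89% lower after ET-1. All 10 members were tested: 9 had at least 1 FPKM in all 6 libraries, while Igfbp5 was tested only because of its level in the 3 untreated libraries, so that a difference was built into its entry. The median log2 change of the members was 0.068, against -0.027 over all genes tested. The groups did not overlap in 4 members, 3 higher and 1 lower, a pattern shown by 30.9% of all genes tested (13.2% higher and 17.6% lower).

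**Figure D2:**
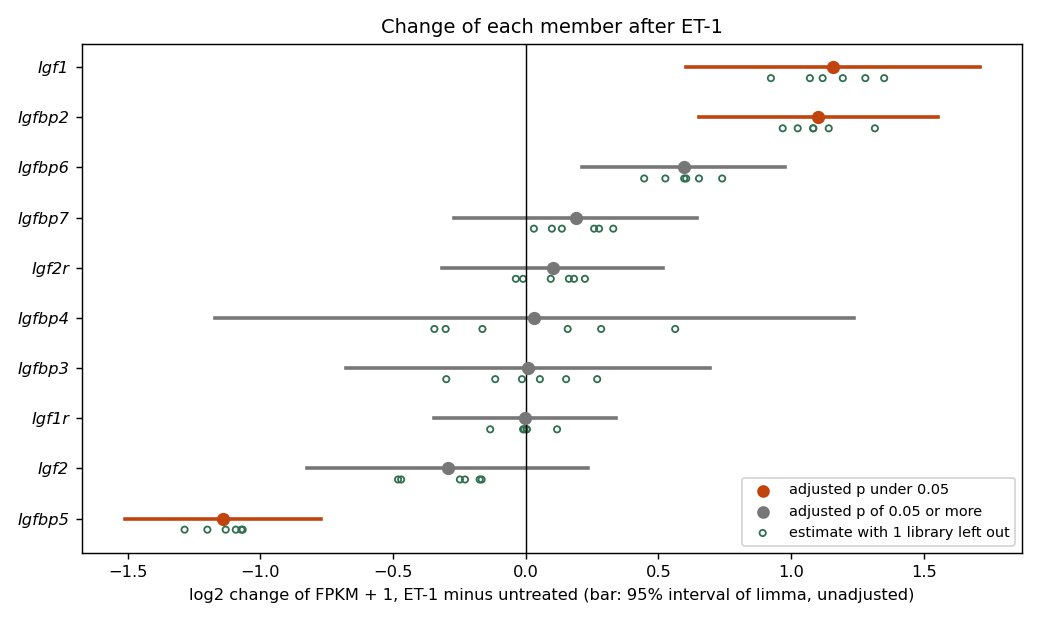
Log2 change of FPKM + 1, ET-1 minus untreated, for each member (large points) with the unadjusted 95% interval of limma (bars) and the estimates with 1 library left out (small open circles). Red marks Igf1, Igfbp2 and Igfbp5, which passed an adjusted p of 0.05. For Igf1r, Igf2r, Igfbp3 and Igfbp4 the open circles lie on both sides of 0.

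Igf1, the ligand that mediates much of the action of growth hormone, was the member with the largest rise on this scale. It was at 11.03, 7.26 and 5.66 FPKM in ET-1 libraries 1 to 3, against 2.47, 3.64 and 2.71 FPKM in untreated libraries 1 to 3. Every ET-1 library lay above every untreated one, and the ET-1 libraries were spread more widely, with ET-1 library 1 the highest. The ratio of mean FPKM was 2.72, and the log2 change was 1.16 ± 0.23 (SE, n = 3 each; limma adjusted p = 0.0498). Igf1 (chromosome 10, 87858265 to 87937047, plus strand, mm10) overlaps the antisense gene Igf1os over 5117 bases, and no source used here says that strand was kept, so reads of the pair cannot be told apart. With a pseudocount of 5 the log2 change of Igf1 was 0.69 (adjusted p = 0.0646). The Igf1 call lay at the threshold and was lost in 12 of 15 alternatives, among them without ET-1 library 1 or 2 (adjusted p = 0.0928 and 0.105) and without untreated library 1, 2 or 3 (0.161, 0.061 and 0.215).

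Igf2, the ligand that dominates fetal growth and is imprinted, did not pass. It was at 3.05, 1.66 and 1.98 FPKM after ET-1, against 3.27, 2.01 and 3.61 FPKM in untreated cells. The groups overlapped, and library 2 was the lowest of both groups. The log2 change was -0.29 ± 0.22 (SE, n = 3 each; limma adjusted p = 0.461), with a 95% interval of -0.82 to 0.23. The Igf2 values rest on about 118 to 267 fragments a library by the estimated depth, and the gene (chromosome 7, 142650768 to 142666816, minus strand) shares its span with a same-strand protein-coding gene, Gm49394, the miRNA Mir483 and the antisense gene Igf2os.

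The ratio of the ligands did not overlap between the groups. Igf1 alone already lay apart and Igf2 overlapped, so this ratio and the share below rest mainly on Igf1. They add no separate result. Within a library, Igf1 stood at 3.62, 4.37 and 2.86 times the FPKM of Igf2 in ET-1 libraries 1 to 3, against 0.755, 1.81 and 0.751 times in untreated libraries 1 to 3. The share of Igf1 in the summed ligand FPKM was 74.1% to 81.4% after ET-1 and 42.9% to 64.4% in untreated cells. Untreated library 2, which had the most Igf1 and the least Igf2 of its group, lay nearest to the ET-1 libraries.

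Neither receptor passed. Igf1r, the signalling receptor (chromosome 7, 67952257 to 68233667, plus strand), was at 7.94, 9.82 and 6.63 FPKM after ET-1, against 8.16, 8.04 and 7.99 FPKM in untreated cells. The untreated libraries were nearly equal (8.06 ± 0.087 FPKM, SD, n = 3), whereas the ET-1 libraries spread to both sides of them (8.13 ± 1.603 FPKM, SD, n = 3). The log2 change was -0.004 with a 95% interval of -0.35 to 0.34 (limma adjusted p = 0.990, n = 3 each). Igf2r, the clearance receptor, was at 5.45, 6.71 and 7.91 FPKM after ET-1, against 6.93, 4.85 and 6.72 FPKM in untreated cells. Its log2 change was 0.10 with a 95% interval of -0.31 to 0.52 (limma adjusted p = 0.756, n = 3 each). Igf2r (chromosome 17, 12682406 to 12769706) shares 28396 bases with Airn, the antisense RNA of its imprinted locus.

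Igfbp2 and Igfbp5 are neighbours on chromosome 1 and changed in opposite directions. Igfbp2 (72824480 to 72852474, plus strand) and Igfbp5 (72858065 to 72874865, minus strand) point towards each other, with 5590 bases between their ends in mm10. The sequences upstream of their RefSeq starts (GRCm38.p6) are shown because the genes share a locus and not a direction of change. They are written 5′ to 3′ on each gene's own strand, the Igfbp2 stretch at chr1:72824230-72824479 (plus strand) and the Igfbp5 stretch at chr1:72874885-72875115 (minus strand, stopped where an annotated exon begins). Capitals mark motif matches.
Igfbp2: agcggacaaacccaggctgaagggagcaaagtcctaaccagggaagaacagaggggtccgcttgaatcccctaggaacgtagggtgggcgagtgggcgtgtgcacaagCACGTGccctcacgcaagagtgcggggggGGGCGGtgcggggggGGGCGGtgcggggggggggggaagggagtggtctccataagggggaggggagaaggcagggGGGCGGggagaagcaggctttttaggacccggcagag
Igfbp5: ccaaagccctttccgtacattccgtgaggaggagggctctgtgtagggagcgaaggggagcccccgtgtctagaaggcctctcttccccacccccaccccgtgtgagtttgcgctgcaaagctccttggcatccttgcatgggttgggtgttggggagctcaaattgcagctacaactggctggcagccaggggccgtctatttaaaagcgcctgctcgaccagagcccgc
Short motifs were searched on both strands of the 250 bases before each start. TATAAA was used for the core promoter box bound by TBP, CCAAT for the upstream box bound by the factor NF-Y, GGGCGG for the box bound by Sp1, TGANTCA for sites of the AP-1 complex, and CACGTG for the palindromic E-box. The Igfbp2 window held 4 matches with no overlap among them: GGGCGG beginning 113, 98 and 37 bases before the start and CACGTG beginning 142 bases before it. The Igfbp5 window held 0 matches. Among all 32851 windows of this length, 32.7% held GGGCGG and 6.02% held CACGTG. The Igfbp2 window was 67.2% and the Igfbp5 window 58.8% G or C, against a median of 52.4% over all windows.

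Igfbp2, which binds IGF2 in preference to IGF1 and can also bind integrins, rose. It was at 854, 790 and 527 FPKM in ET-1 libraries 1 to 3, against 348, 320 and 321 FPKM in untreated libraries 1 to 3. The lowest ET-1 library lay well above the highest untreated one, and the untreated libraries were tight. The ratio of mean FPKM was 2.196, and the log2 change was 1.10 ± 0.19 (SE, n = 3 each; limma adjusted p = 0.0373). Its rank among all genes by mean FPKM was 132 after ET-1 and 252 in untreated cells. The call was lost without ET-1 library 1 or 2 (adjusted p = 0.0876 and 0.0878), without untreated library 1, 2 or 3 (0.110, 0.0672 and 0.178) and without a filter (0.0649).

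Igfbp5, a binding protein that attaches to extracellular matrix and is often abundant in mesenchymal cells, fell. It was at 0.41, 0.42 and 0.91 FPKM after ET-1, against 2.69, 2.18 and 2.50 FPKM in untreated cells. The groups were clearly apart, and ET-1 library 3 was the highest of the treated libraries. By the estimated depth these levels correspond to about 43, 43 and 97 fragments after ET-1 and about 287, 232 and 268 fragments in untreated cells. Mean FPKM was 4.24-fold lower after ET-1. On the log2(FPKM + 1) scale, which understates the change of so low a gene, the change was -1.14 ± 0.16 (SE, n = 3 each; limma adjusted p = 0.0230), and with pseudocounts of 0.1 and 5 it was -1.98 and -0.42. Igfbp5 passed the filter only through the untreated libraries, where it was high, so the difference was built into its entry. Without that filter it was still called (adjusted p = 0.0402 over 17838 genes). The Igfbp5 call was lost without ET-1 library 1 or 2 (adjusted p = 0.0715 and 0.0587) and without untreated library 1 or 3 (0.0767 and 0.130).

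Within a library the level of Igfbp2 was 2080, 1880 and 579 times that of Igfbp5 after ET-1, against 129, 147 and 128 times in untreated cells. Igfbp2 was higher and Igfbp5 lower in every ET-1 library, so the ratios had to lie apart and add no separate result. After ET-1 they divide by an Igfbp5 level of only 0.41 to 0.91 FPKM. Library 3 had both the least Igfbp2 and the most Igfbp5 of the ET-1 libraries.

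Igfbp6 (chromosome 15, 102144186 to 102149512, plus strand), which binds IGF2 with high preference, was higher in every ET-1 library but did not pass. It was at 153, 189 and 125 FPKM after ET-1, against 110, 92.0 and 103 FPKM in untreated cells. The ratio of mean FPKM was 1.53 and the log2 change 0.59 ± 0.16 (SE, n = 3 each; limma adjusted p = 0.0893). Without ET-1 library 3 the Igfbp6 change was 0.74 and passed (adjusted p = 0.0435).

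Igfbp3, Igfbp4 and Igfbp7 overlapped between the groups and did not pass. Igfbp3, the main carrier of IGFs in serum (chromosome 11, 7206086 to 7213923, minus strand), was at 56.5, 125 and 76.5 FPKM after ET-1, against 99.4, 68.3 and 78.7 FPKM in untreated cells. ET-1 libraries 1 and 2 held the lowest and the highest value of all 6. Its log2 change was 0.008 with a 95% interval of -0.68 to 0.69 (limma adjusted p = 0.991, n = 3 each).

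Igfbp4, which inhibits IGF action and is cleaved by the protease PAPP-A (chromosome 11, 99041260 to 99052646, plus strand), was at 71.2, 20.8 and 58.6 FPKM after ET-1, against 61.9, 25.3 and 51.8 FPKM in untreated cells. Library 2 was by far the lowest of both groups. Its log2 change was 0.03 with a 95% interval of -1.17 to 1.24 (limma adjusted p = 0.978, n = 3 each), the widest interval among the 10 members. Igfbp7 (chromosome 5, 77349240 to 77408045, minus strand) was at 1435, 1041 and 1362 FPKM after ET-1, against 1224, 894 and 1256 FPKM in untreated cells, and library 2 was again the lowest of both groups. Its log2 change was 0.19 with a 95% interval of -0.27 to 0.65 (limma adjusted p = 0.588, n = 3 each). The gene overlaps the antisense gene Gm34648 over 7085 bases and Polr2b over 85 bases.

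Igf2, Igfbp4 and Igfbp7 thus shared a low value in the libraries numbered 2. In the same libraries the summed FPKM of 12 Sertoli cell markers, mostly Clu, was the highest of each group, at 6781 FPKM in ET-1 library 2 and 2625 FPKM in untreated library 2. The sum of 7 Leydig cell markers was the lowest there, at 828 FPKM in ET-1 library 2 and 2335 FPKM in untreated library 2. The part of these cell types in the levels of the 3 genes was not tested.

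The 6 binding protein transcripts together came to 2570, 2166 and 2150 FPKM after ET-1, against 1846, 1401 and 1813 FPKM in untreated cells. Every ET-1 library was above every untreated one. Igfbp7 and Igfbp2 together held 84.5% to 89.1% of that sum after ET-1 and 85.2% to 87.0% in untreated cells. Within the pair the balance differed: Igfbp2 made up 24.5% to 36.5% of the sum after ET-1 and 17.7% to 22.8% in untreated cells, and Igfbp7 made up 48.0% to 63.3% after ET-1 and 63.8% to 69.3% in untreated cells. Shares of the same sum are tied to each other. The level of Igfbp7 itself was not lower after ET-1 (log2 change 0.19, groups overlapping), so its lower share adds no separate result. Igfbp5 made up at most 0.0423% after ET-1 and 0.138% to 0.156% in untreated cells. The summed binding proteins stood at 183 to 281 times the summed ligands after ET-1 and at 248 to 322 times in untreated cells, and these ranges overlapped. No p is given for these sums and shares, since the members were chosen with results known.

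**Figure D3:**
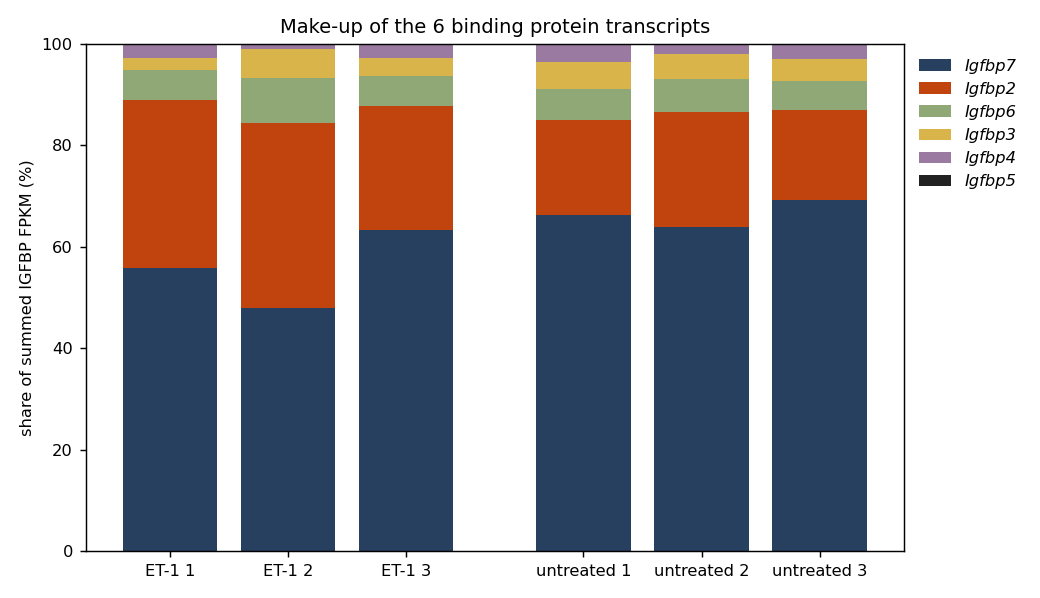
Share of each binding protein in the summed FPKM of the 6 binding protein genes (percent, linear axis from 0), 1 bar a library, the ET-1 libraries on the left and the untreated ones on the right. Igfbp2 (red) takes 24.5% to 36.5% of each ET-1 bar and 17.7% to 22.8% of each untreated bar, and Igfbp5 is too small to be seen.

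The authors' deposited table gave a q-value under 0.05 to 9 of the 10 members, all but Igf1r (q = 0.335), and also to 78.4% of the genes tested here. Its log2 changes, ET-1 over untreated, were 1.44 for Igf1, 1.16 for Igfbp2, -2.07 for Igfbp5 and 0.61 for Igfbp6 in the authors' deposited table. No source used here says how the replicates entered those q-values.

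Around the 10 members, 42 of 54 listed genes of IGF availability, receptor signalling and imprinted growth control were tested, and Grb10 alone passed. This is 2.38% of the 42 genes, against 3.46% of all genes tested. Their median log2 change was 0.016, with 22 higher and 20 lower by sign, and the groups did not overlap in 6 of them (14.3%, against 30.9%). With the replicate number as a block, 1 rose and 2 fell, against 9.45% of all genes called in that fit.

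Grb10, an imprinted adaptor that binds the activated IGF1 and insulin receptors and dampens their signal, rose. It was at 35.6, 30.3 and 30.4 FPKM after ET-1, against 15.64, 15.04 and 14.63 FPKM in untreated cells. The groups lay far apart and each was tight. The ratio of mean FPKM was 2.12, and the log2 change was 1.04 ± 0.10 (SE, n = 3 each; limma adjusted p = 0.0146). Grb10 lies on chromosome 11 (11930499 to 12037420, mm10). The call was lost without untreated library 3 (adjusted p = 0.0962) and with untreated libraries 1 and 3 averaged (0.0696). Of the 9 tested genes of the insulin receptor family and its adaptors, the other 8 did not pass, with log2 changes from -0.34 for Irs2 to 0.30 for Gab1, and the list's median was 0.14.

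None of the 6 tested proteases, inhibitors and carriers that set how much IGF is free passed over all genes (median log2 change -0.45). Stc1 encodes stanniocalcin 1, and stanniocalcins inhibit PAPP-A. It was at 21.1, 8.29 and 33.9 FPKM after ET-1, against 62.8, 46.6 and 64.9 FPKM in untreated cells. The groups did not overlap, and the log2 change was -1.60 ± 0.45 (SE, n = 3 each; limma adjusted p = 0.0961). With the replicate block Stc1 (adjusted p = 0.0222) and the secreted serine protease Htra3 (adjusted p = 0.00733; 11.2 ± 5.4 FPKM after ET-1 and 32.5 ± 15.2 FPKM in untreated cells, SD, n = 3 each) passed limma, and Stc1 also passed without ET-1 library 3 (0.0464). Pappa, the gene of PAPP-A, was the 1 gene of the list higher by sign, at 1.35, 1.83 and 2.40 FPKM after ET-1, against 0.59, 1.25 and 0.78 FPKM in untreated cells. Its groups did not overlap, and it did not pass (log2 change 0.61, limma adjusted p = 0.118). Pappa met the filter only through the ET-1 libraries, so a difference was built into its entry. Htra3 and Pappa were singled out after their values were seen. The binding protein gene Igfbp1, a neighbour of Igfbp3, was listed at 0 FPKM in all 6 libraries, and Igfals, which encodes the acid-labile subunit of the circulating IGF complex, was at 0 FPKM in 5 of 6.

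The signalling arm downstream of the receptor held no call: of 21 tested genes of PI3 kinase, AKT and mTOR, 10 were higher and 11 lower by sign, with a median log2 change of -0.022. Pik3r2, a regulatory subunit of PI3 kinase, had the smallest p (log2 change 0.38 ± 0.14, SE, n = 3 each; limma adjusted p = 0.158). Igf2bp2, an mRNA-binding protein of the IGF2 transcript and the 1 tested gene of its family, was at 5.23, 3.41 and 7.76 FPKM after ET-1, against 6.70, 4.38 and 6.51 FPKM in untreated cells (limma adjusted p = 0.811). All 5 tested imprinted growth genes were higher by sign (median log2 change 0.29), against 45.7% of all genes tested, and none passed. Of the 5, Dlk1 passed the filter only through the ET-1 libraries, so a difference was built into its entry. Igf2, also imprinted but counted as a member and not in this list, was lower by sign (-0.29). Plagl1, an imprinted zinc-finger factor, had the smallest p of these, with 14.9 ± 1.8 FPKM after ET-1 and 10.6 ± 0.6 FPKM in untreated cells (SD, n = 3 each; limma adjusted p = 0.0843).

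**Figure D4:**
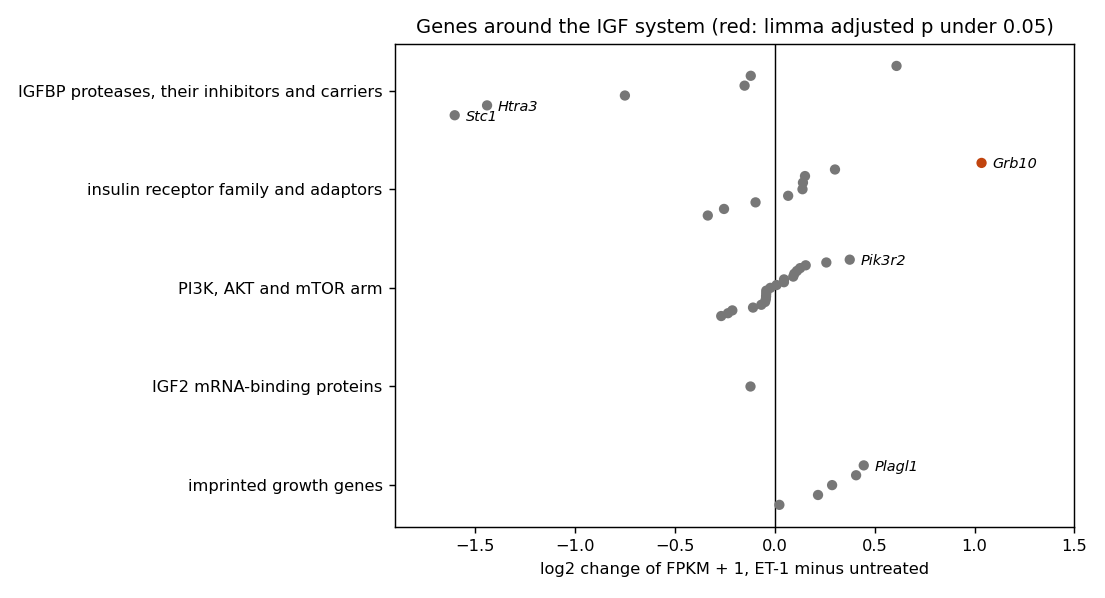
Log2 change of FPKM + 1, ET-1 minus untreated, for the 42 tested genes around the IGF system, 1 point a gene, grouped by list. Grb10 (red) is the point past a limma adjusted p of 0.05. The 21 genes of the PI3 kinase, AKT and mTOR arm lie between -0.27 and 0.38, and Stc1 and Htra3 lie lowest of all.

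Markers of other cell types differed between the groups alongside Igf1 and Igfbp5. The summed FPKM of 13 macrophage markers was 752, 398 and 318 in ET-1 libraries 1 to 3, against 126, 206 and 141 in untreated libraries 1 to 3. Igf1 placed the 6 libraries in the same order as this sum, from ET-1 library 1 at the top to untreated library 1 at the bottom. By sign 12 of the 13 macrophage markers were higher after ET-1, against 45.7% of all genes tested, and Cd14 was lower (log2 change -0.45). The groups did not overlap in 8, all higher, against 13.2% of all genes tested. Of these 8, Adgre1 passed the filter only through the ET-1 libraries, so its difference was built into its entry. Limma called 1 marker, against 3.46% of all genes tested: Lyz2, the macrophage lysozyme (199.7 ± 98.5 FPKM after ET-1 and 42.7 ± 12.9 FPKM in untreated cells, SD, n = 3 each; adjusted p = 0.0373). In the blocked fit 7 of the macrophage markers were called higher and 1, Cd14, lower, against 9.45% of all genes called in that fit. No macrophage marker was at 0 in any library. The part of macrophage RNA in the Igf1 result was not tested.

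The summed FPKM of 9 endothelial markers was 36.3, 27.0 and 47.5 after ET-1, against 96.1, 60.8 and 83.1 in untreated cells. Of the 6 tested, 4 fell (Pecam1, Esam, Egfl7 and Emcn), against 1.89% of all genes tested called lower. Kdr passed the filter only through the untreated libraries and was not called (limma adjusted p = 0.0793). Cdh5, the most abundant over all 6 libraries though below Esam and Emcn in untreated cells, did not pass (log2 change 0.25, limma adjusted p = 0.691). Igfbp5 ordered the untreated libraries as this sum did, with library 1 highest, then 3, then 2, and ET-1 library 3 was the highest treated library in both. The full orders were not the same: ET-1 library 1 was lowest for Igfbp5 and ET-1 library 2 for the sum. The 3 markers below the filter, at 2.01 FPKM or less, were lower in every ET-1 library than in any untreated one. Among all genes tested 17.6% were lower in this way, but no such share was computed for genes below the filter. The levels of these 3 lay near the floor. Tek, a receptor of angiopoietins, was at 0.17 to 0.29 FPKM after ET-1 and 0.36 to 0.44 FPKM in untreated cells. Tie1 was at 0.20 to 0.24 FPKM after ET-1 and 0.44 to 1.26 FPKM in untreated cells, and Cldn5 at 0.08 to 0.39 and 0.73 to 2.01 FPKM. The part of endothelial RNA in the Igfbp5 result was not tested.

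The sums of Sertoli markers (3122 to 6781 FPKM after ET-1, 1102 to 2625 FPKM in untreated cells) and of peritubular myoid markers (4543 to 6223 FPKM after ET-1, 3942 to 4412 FPKM in untreated cells) were higher in every ET-1 library, as was Igfbp2. Of the 9 peritubular myoid markers, 7 were higher by sign and 2 lower, Myh11 (log2 change -0.58) and Des (-0.49). Limma called none of the 9. Their groups did not overlap in 4, all higher, against 13.2% of all genes tested, and Acta2 overlapped. Among the Sertoli markers, Sox8 and Aard rose, 2 of 11 Sertoli genes tested, against 1.57% of all genes tested. Sox8, at 0.96, 0.82 and 1.02 FPKM in untreated cells, passed the filter only through the ET-1 libraries. A difference was thus built into its entry. The most abundant Sertoli marker, Clu, did not pass (adjusted p = 0.0841, limma). With the replicate block 5 Sertoli markers rose, against 9.45% of all genes called in that fit in either direction. The Sertoli sum was mostly Clu. The groups did not overlap in 4 of the 11 tested Sertoli markers, Sox8 among them, all higher, against 13.2% of all genes tested. They overlapped in others, among them Sox9 and Wt1. Igfbp2 and the Sertoli sum had different highest libraries, ET-1 library 1 for Igfbp2 and ET-1 library 2 for the Sertoli sum. The Leydig sum, mostly Insl3, overlapped between the groups at 828 to 2422 FPKM after ET-1 and 2335 to 4960 FPKM in untreated cells, and 10 germ cell markers summed to at most 17.8 FPKM after ET-1 and 14.6 FPKM in untreated cells, with Prm2 the highest. No Leydig marker passed. With the replicate block 1 was called higher and 2 lower, against 9.45% of all genes called in that fit. The steroidogenic enzyme gene Cyp17a1 was at 0 in 3 libraries and at 0.09 FPKM or less in the others. The part of these cell types in the Igfbp2 result was not tested.

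**Figure D5:**
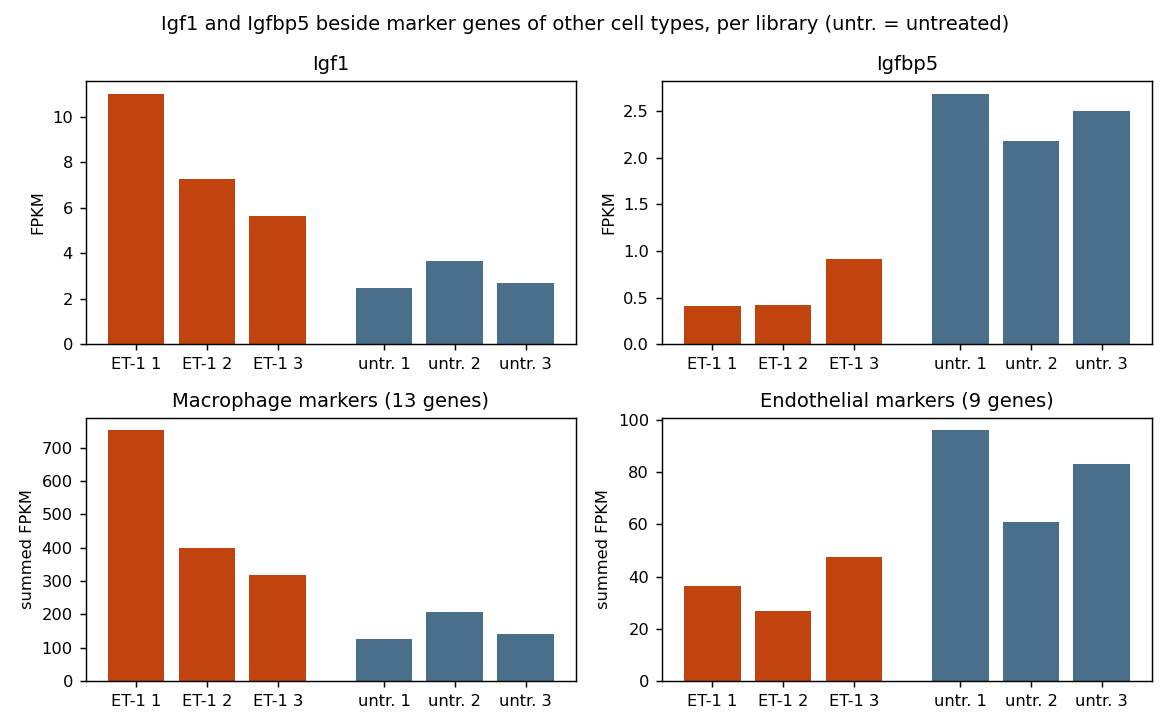
FPKM of Igf1 and Igfbp5 (top) and summed FPKM of 13 macrophage and 9 endothelial marker genes (bottom) in each library, ET-1 libraries on the left in red and untreated ones on the right in blue, all axes linear from 0. Igf1 and the macrophage sum are both highest in ET-1 library 1 and both lowest in untreated library 1, while Igfbp5 and the endothelial sum are both lower in all 3 ET-1 libraries.

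Likeness of pattern was measured for the ligands as the root-mean-square difference between genes in log2(FPKM + 1), each centred on its mean over the 6 libraries, among 11375 other tested genes. The genes closest to Igf1 were Sat2 (0.0908), Ncf1 (0.0993), a subunit of the phagocyte NADPH oxidase, and Lpl (0.113), the lipoprotein lipase. Ncf1 was at 3.24, 1.69 and 1.58 FPKM after ET-1, against 0.38, 0.79 and 0.41 FPKM in untreated cells. It passed the filter only through the ET-1 libraries. Its highest and lowest libraries were those of Igf1, but it was chosen for likeness over these same libraries, so this is no separate result. The genes closest to Igf2 were Hoxd4 (0.0494), Ube2c (0.059) and Steap2 (0.0661). In all of them library 2 was the lowest of both groups, as in Igf2, which again comes with the choice by likeness.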

How the data were processed

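RNA sequencing libraries were made from total RNA with a BGI protocol, per the labels. HISAT2 2.0.4, Bowtie2 2.2.5, RSEM 1.2.12 and the build mm10 are named in the submitters' processing notes, with no role for each. The authors deposited FPKM per gene and library, rounded to 2 decimals, with mean FPKM per group, a log2 fold change and a p-value and q-value, the q-value being from DEGseq per the file headers. In 99.5% of genes the deposited log2 value was positive where ET-1 had the higher mean and negative where it had the lower. Gene coordinates are those of the deposited table.

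FPKM are not counts, so no count test was run. Depth was estimated from single-transcript genes of 300 to 1200 bases at 0.05 to 0.6 FPKM: at the best depth 82.9% to 88.3% of values lay within 0.15 of a whole fragment. Because RSEM fragments need not be whole, depths and fragment numbers are approximate. Log2(FPKM + 1) of genes with at least 1 FPKM in at least 3 libraries was fitted with limma 3.58.1 in R 4.3.3 (two-sided, no covariate, variance trended on mean expression) and adjusted by Benjamini-Hochberg over 11664 genes; the step was tested on simulated data. A permutation of 3 against 3 libraries cannot go below p = 0.1, so none is given. Alternatives were other pseudocounts, filters and scalings, no trend, a replicate block, each library left out, and the mean of untreated libraries 1 and 3. Figures were drawn with matplotlib 3.10.9.

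The members, lists and alternatives were chosen with earlier results of these data known. The text names all members; of each surrounding list the genes that passed or else the smallest p; of each marker list the most abundant gene and those that passed; and the 3 genes nearest each ligand. Other genes of the marker lists, such as Cd14, Adgre1 and Kdr, and Dlk1 of the surrounding lists, were named after their values were seen. Of the 54 surrounding genes, 52 had values, and 10 of these were below the filter.

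Deviations from the group means, compared across genes, correlated at 0.228, 0.523 and 0.202 between the ET-1 and untreated libraries numbered 1, 2 and 3, which is the ground for the replicate block; the labels do not say what a number stands for. ET-1 library 1 correlated more with untreated library 3 (0.271), and ET-1 library 3 with untreated library 1 (0.249), so these did not correlate best with their own number.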

Additional observations from a re-analysis of the deposited data

How the results depend on the processing

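The number of members past the threshold was 3, and it stayed at 2 or 3 with pseudocounts of 0.1 and 5, a filter on the mean, quantile normalization, equal medians, no trend and the replicate block. It was 1 without a filter and 0 with untreated libraries 1 and 3 averaged, and it ranged from 0 to 4 with 1 library left out. The count of surrounding genes past the threshold was 1, ranged from 0 to 2 with 1 library left out, and was 0 with untreated libraries 1 and 3 averaged and 3 with the replicate block, which changed no other call of the members or of these genes. Among all genes 404 passed, against 193 without a filter, 1102 with the replicate block, 9 with untreated libraries 1 and 3 averaged, and 0 to 797 with 1 library left out, the 0 being the limma fit that left out untreated library 3, where 1653 genes had an unadjusted p under 0.05. The cause of these shifts was not tested. Fits with a library left out or averaged held fewer libraries, and the fit without a filter tested more genes.

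Igf1, Igfbp2 and Igfbp5 kept their direction in all 15 alternatives and were called in 3, 8 and 10 of them. With 1 library left out the Igf1 change ranged from 0.92 to 1.35, that of Igfbp2 from 0.97 to 1.32 and that of Igfbp5 from -1.29 to -1.07. The sign turned for Igf1r, whose change near 0 became 0.00024 with a pseudocount of 5, 0.031 with quantile normalization and 0.038 with equal medians, and which ranged from -0.13 to 0.12 with 1 library left out. With 1 library left out it also turned for Igf2r (-0.037 to 0.22), Igfbp3 (-0.30 to 0.27), Igfbp4 (-0.34 to 0.56) and Igf2bp2 (-0.37 to 0.12). Depth limits Igfbp5 and Igf2 most, since their values rest on the fewest fragments.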
